A study of Arabidopsis thaliana with 6 samples.

Results

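The genes described here are the floral repressors of the Flowering Locus C (FLC) clade and their partner Short Vegetative Phase (SVP) in Arabidopsis thaliana seedlings. The 7 loci were taken by locus code: FLC (AT5G10140), MAF1 (AT1G77080, also called Flowering Locus M or FLM), MAF2 (AT5G65050, AGL31 in RefSeq), MAF3 (AT5G65060), MAF4 (AT5G65070), MAF5 (AT5G65080) and SVP (AT2G22540). They are 7 of 28141 loci and assembled features, and 20 of the 36104 transcript rows. RNA of whole Col-0 seedlings, 5 days old and raised on MS plates at 23 °C in days of 16 h light and 8 h dark, was depleted of ribosomal RNA and sequenced from directional libraries. The 6 libraries form 2 groups of 3 replicates. The Wild-type group carries no allele or transgene named in the labels. The fip37-4 LEC1:FIP37 group carries the fip37-4 allele of FIP37, which belongs to the enzyme complex adding N6-methyladenosine to mRNA, together with a FIP37 transgene driven by the promoter of LEC1, a gene active in the embryo. The labels give no line, clone or pooling, and do not say that replicates came from separate sowings, and every p-value below rests on the spread of these samples alone, which could be technical.

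Flowering repressors of this family are MADS-box transcription factors that bind DNA as complexes. FLC and SVP repress the florigen gene FT in leaves and SOC1 and FD at the shoot apex, and the MAF proteins act with SVP in similar complexes. FLC is activated by FRIGIDA, which is defective in Col-0, and silenced by the autonomous pathway and, after winter cold, by Polycomb proteins. MAF1 is known for temperature-dependent splicing that exchanges its second exon for another.

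All values are FPKM, fragment numbers scaled to transcript length and to library depth, deposited per transcript and summed here per locus, so that levels can be compared between genes of different length. FIP37 (AT3G54170) was at 8.99, 9.03 and 8.96 FPKM in Wild-type and, far above, at 80.6, 65 and 67.5 FPKM in fip37-4 LEC1:FIP37. That value sums transgene and endogenous gene, so this level does not show a loss of FIP37, and directions below are those of the libraries as labelled. From the lowest values, taken as single fragments, the depth was estimated at 31500000 to 44400000 fragments a library. On log2(FPKM + 0.5), the first principal component separated the groups, and fip37-4 LEC1:FIP37 replicate 1 stood apart on the second. Markers of the organs in a seedling were present in all 6 libraries, among them the shoot meristem gene STM at 1.36 ± 0.24 and 2.08 ± 0.332 FPKM (mean ± SD with n = 3 in each group, as throughout).

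The 6 genes of the FLC clade share their exon plan, which is why their second exons are shown here. All 6 have 58 nt in the RefSeq models of assembly TAIR10.1, and capitals mark the 32 positions that are the same in every gene. FLC lies on the minus strand at chr5:3175604-3175661, MAF1 at chr1:28958334-28958391, MAF2 at chr5:25984681-25984738, MAF3 at chr5:25989671-25989728, MAF4 at chr5:25994433-25994490 and MAF5 at chr5:26000267-26000324, the last 5 on the plus strand. The sequences run 5′ to 3′ along the transcript.
FLC exon: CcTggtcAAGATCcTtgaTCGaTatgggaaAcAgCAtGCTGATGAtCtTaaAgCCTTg
MAF1 exon: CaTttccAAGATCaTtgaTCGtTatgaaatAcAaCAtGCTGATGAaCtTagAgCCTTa
MAF2 exon: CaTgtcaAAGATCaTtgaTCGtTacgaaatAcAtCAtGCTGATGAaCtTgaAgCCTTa
MAF3 exon: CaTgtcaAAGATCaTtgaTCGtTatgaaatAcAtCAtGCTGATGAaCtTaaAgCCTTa
MAF4 exon: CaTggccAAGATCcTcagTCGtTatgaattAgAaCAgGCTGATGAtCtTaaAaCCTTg
MAF5 exon: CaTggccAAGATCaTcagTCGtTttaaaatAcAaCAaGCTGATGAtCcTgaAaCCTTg

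The MAF2 to MAF5 genes stand side by side on chromosome 5, and their similarity bears on how reads could be assigned. Over the coding sequence, identity was 93.6% between MAF2 and MAF3, 89.7% between MAF1 and MAF3, 87.3% between MAF1 and MAF2, and between 66% and 76.5% for FLC against each of the others of the clade. SVP was at most 51.6% identical to any of them. Identical stretches were short: of all windows of 50 nt in the main spliced model, 1.27% of those in MAF2, 2.26% of those in MAF3 and 1.24% of those in MAF1 also occurred in another of the 7 genes, and 0% of those in FLC, MAF4, MAF5 and SVP. The longest identical runs were 61 nt, between MAF1 and MAF3, and 59 nt, between MAF2 and MAF3. The sources used here give no read length, and the division of reads among MAF1, MAF2 and MAF3 is uncertain over those stretches.

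FLC was lower in the fip37-4 LEC1:FIP37 seedlings, whereas SVP, MAF3 and MAF4 were modestly higher, MAF2 was modestly lower and MAF1 did not pass the test. Of the 7 genes, 6 passed the filter of 0.5 FPKM in at least 3 libraries, 3 of them were called higher and 2 lower (limma, Benjamini-Hochberg adjusted p under 0.05). Across all 19383 loci tested, 58.6% were called, 27.6% higher and 30.9% lower, so 5 calls in 6 genes are not many for this comparison. The groups did not overlap for 5 of the 6, against 65.9% of all loci tested. The median log2 fold change of the 6 was 0.07, against -0.0019 over all loci tested. Because whole seedlings were sampled, fewer cells of a type and less RNA per cell cannot be told apart.

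FLC, the repressor that vernalization silences, was scarce in both groups. Its level was 1.03, 1.24 and 1.47 FPKM in Wild-type and 0.554, 0.417 and 0.462 FPKM in fip37-4 LEC1:FIP37. All 3 of the latter lay below the lowest Wild-type library, and the mean was 2.61-fold lower. The log2 fold change was -0.83 ± 0.12 (SE; adjusted p = 0.000575 by limma), with a 95% interval from -1.12 to -0.55, all on log2(FPKM + 0.5), a scale that shrinks differences of low genes such as FLC. Of all loci tested, 7.5% had a larger absolute change. The isoform AT5G10140.1 held 97.7 ± 3.91% of FLC in Wild-type and 91.5 ± 14.8% in the other group, where fip37-4 LEC1:FIP37 replicate 2 had 74.4%, the rest being AT5G10140.2. It was worth about 32.8, 42.9 and 41.7 fragments in Wild-type and 16.4, 11.1 and 11.7 in the other group. The FLC call was kept in all 15 alternative settings, with log2 fold changes from -1.21 to -0.60 and adjusted p from 0.000301 to 0.00357.

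RefSeq annotates a long non-coding RNA, AT5G01675, on the strand opposite FLC and across its whole length. That locus was not analysed here. The sources used here do not say if strand entered the counting, and FLC and antisense reads may therefore not be told apart.

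SVP, which pairs with FLC and MAF1 proteins, was the most abundant of the 7. Wild-type libraries held 23.9, 23.2 and 21.8 FPKM of it, and fip37-4 LEC1:FIP37 libraries 30.1, 26.9 and 25.8 FPKM. The groups did not overlap, and fip37-4 LEC1:FIP37 replicate 1 was the highest. The log2 fold change was 0.26 ± 0.066 (SE; adjusted p = 0.00904 by limma). It kept its call in all 15 alternative settings, with values from 0.20 to 0.43, the latter after quantile normalization, and adjusted p from 0.00179 to 0.0491. The ratio of SVP to FLC, in FPKM, was 23.3, 18.7 and 14.8 in Wild-type and 54.3, 64.3 and 55.9 in the fip37-4 LEC1:FIP37 libraries. Its exact two-sided permutation p was 0.1, the minimum for 3 against 3 samples, and 0.133 adjusted over 4 such sums and ratios. Both genes already separated the groups, in opposite directions, so this ratio had to separate them too and its p-value adds no support.

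**Figure D1:**
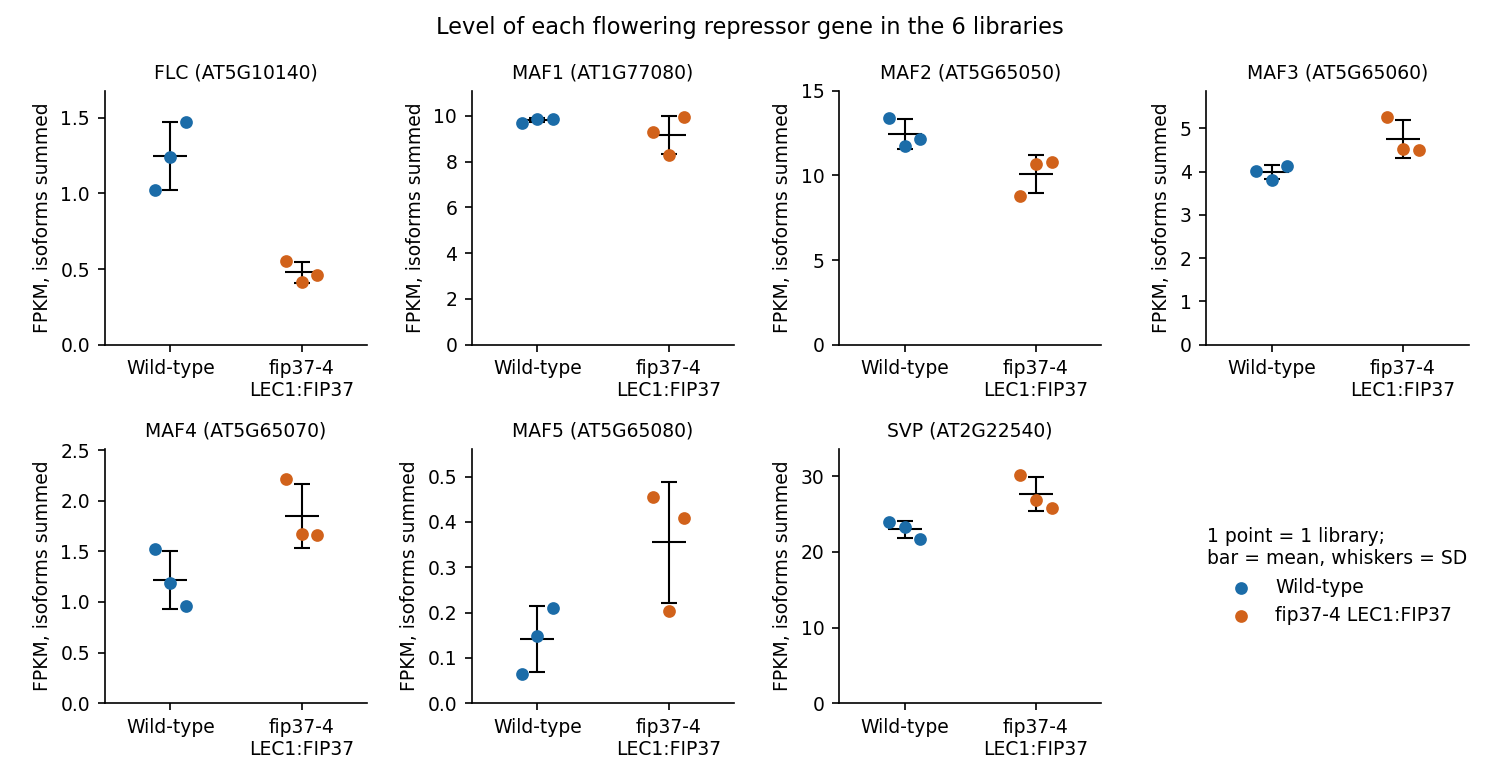
FPKM of each of the 7 genes (y axis, isoforms summed, from 0) in Wild-type (blue) and fip37-4 LEC1:FIP37 (orange); each point is 1 library, ordered by replicate number, with the mean and SD. FLC falls from 1.25 to 0.478 FPKM on average without overlap, SVP goes from 23 to 27.6 FPKM, and MAF1 and MAF5 overlap between groups.

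MAF2, which delays flowering after short cold spells, was the most abundant gene of the clade in Wild-type. Wild-type had 13.4, 11.8 and 12.2 FPKM, against 8.78, 10.7 and 10.8 FPKM in fip37-4 LEC1:FIP37. The groups did not overlap, with fip37-4 LEC1:FIP37 replicate 1 the lowest. The log2 fold change was -0.29 ± 0.086 (SE; adjusted p = 0.0173 by limma). Leaving out Wild-type replicate 1 ended the call (-0.24, adjusted p = 0.0664), as did quantile normalization (-0.21) and fitting out a length trend (-0.12), and the adjusted p over all alternatives ran from 0.00399 to 0.209.

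MAF3, the next gene of the cluster, was at 4.02, 3.8 and 4.13 FPKM in Wild-type and at 5.27, 4.53 and 4.50 FPKM in fip37-4 LEC1:FIP37. All 3 values of the second group were above those of the first, by 0.23 ± 0.077 on the log2 scale (SE; adjusted p = 0.032 by limma). The call rests on few libraries. It was lost without Wild-type replicate 1, 2 or 3 (log2 fold changes 0.23, 0.20 and 0.25, adjusted p = 0.0705, 0.103 and 0.0522) and when fip37-4 LEC1:FIP37 replicate 1 was left out (0.16, adjusted p = 0.085), and it was 0.38 with the length trend removed. Adjusted p over all alternatives ran from 0.00352 to 0.105.

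MAF4 was as scarce as FLC in Wild-type, at 1.52, 1.18 and 0.955 FPKM, and was at 2.22, 1.68 and 1.66 FPKM in fip37-4 LEC1:FIP37. The lowest library of the second group was only slightly above the highest of the first. Its log2 fold change was 0.46 ± 0.14 (SE; adjusted p = 0.0246 by limma). When Wild-type replicate 2, Wild-type replicate 3 or fip37-4 LEC1:FIP37 replicate 1 was left out, it was 0.45, 0.34 and 0.35 and no longer called (adjusted p = 0.067, 0.0852 and 0.0642; range over all alternatives 0.00494 to 0.097).

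MAF5, which vernalization raises in other work, had the lowest levels of the 7 and was below the filter. It was listed at 0.0646, 0.149 and 0.211 FPKM in Wild-type and at 0.454, 0.203 and 0.408 FPKM in fip37-4 LEC1:FIP37, so the groups overlapped. That overlap came from AT5G65080.2, at 0.0771 FPKM in Wild-type replicate 3, and the main isoform, AT5G65080.1, did not overlap. The RefSeq model of AT5G65080.1 gives less than 1 fragment for the Wild-type values, all above 0, so no fragment number is given for it. With no filter the log2 fold change of MAF5 was 0.41 ± 0.14 (SE; adjusted p = 0.0423 by limma).

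MAF1, the thermosensory member of the clade, was at 9.69, 9.84 and 9.86 FPKM in Wild-type and at 9.29, 8.27 and 9.94 FPKM in fip37-4 LEC1:FIP37. The values overlapped. The log2 fold change was -0.10 ± 0.068 (SE; adjusted p = 0.258 by limma), with a 95% interval from -0.25 to 0.06.

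The 3 tested genes of the tandem cluster were not all called in 1 direction. The summed level of MAF2 to MAF5, with the untested MAF5 included, was 19.0, 16.9 and 17.5 FPKM in Wild-type. In fip37-4 LEC1:FIP37 it was 16.7, 17.1 and 17.3 FPKM. Fitted as 1 feature among all loci, the sum had a log2 fold change of -0.06 ± 0.054 (SE; adjusted p = 0.382 by limma), with a 95% interval from -0.18 to 0.07, and it was 0.08 after quantile normalization, also with no call. The ratio of MAF2 to MAF4, in FPKM, a pair chosen because the calls differ in direction, was 8.83, 9.95 and 12.7 in Wild-type and 3.96, 6.37 and 6.5 in the other group (exact permutation p = 0.1, adjusted 0.133, which does not pass). Because MAF2 and MAF4 each separated the groups, in opposite directions, this ratio could not overlap, and its p-value adds no support. The lowest ratio was that of fip37-4 LEC1:FIP37 replicate 1.

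The order of levels in Wild-type, per length, was SVP, MAF2, MAF1, MAF3, FLC and MAF4, and MAF5. FLC and MAF4 did not differ there beyond their spread, at 1.25 ± 0.224 and 1.22 ± 0.284 FPKM. In fip37-4 LEC1:FIP37 the libraries of MAF2 and MAF1 overlapped, at 10.08 ± 1.13 and 9.17 ± 0.841 FPKM. There MAF4, at 1.85 ± 0.318 FPKM, was above FLC in every library, and FLC, at 0.478 ± 0.0698, overlapped MAF5, at 0.355 ± 0.134. FLC held 4.34 ± 0.841% of the summed FPKM of the 6 clade genes in Wild-type and 1.79 ± 0.257% in the other group. MAF4 held 4.22 ± 0.896% and 6.94 ± 1.25%, and MAF1 34 ± 1.32% and 34.3 ± 1.95%. The sum of the clade was 28.8 ± 0.887 and 26.7 ± 0.993 FPKM (exact permutation p = 0.1, adjusted 0.133).

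**Figure D2:**
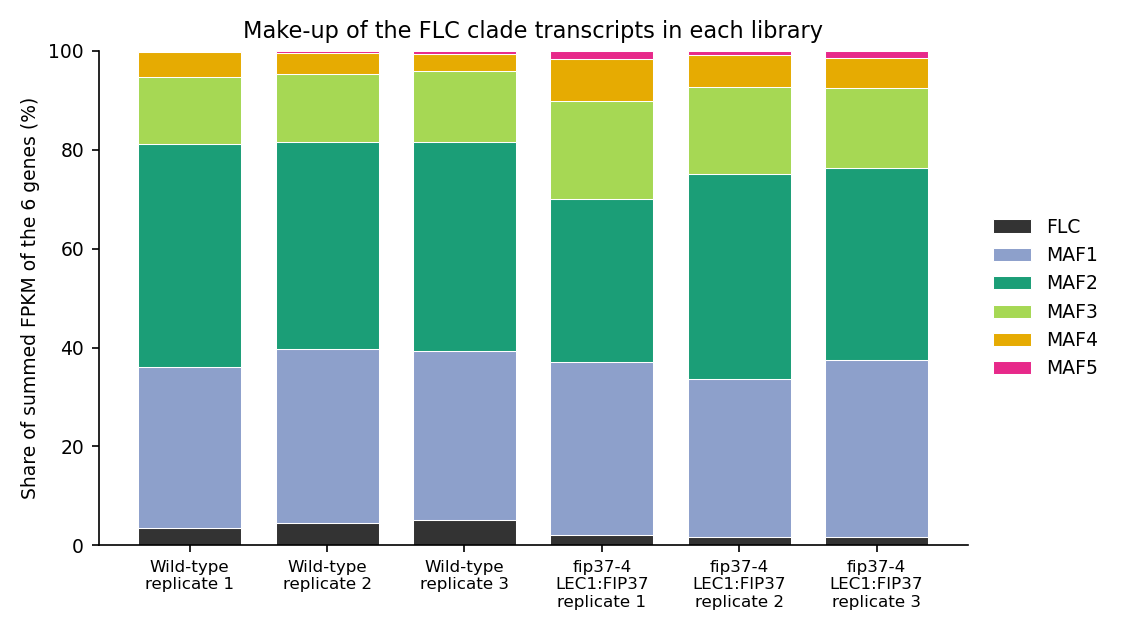
Share of each of the 6 FLC clade genes in their summed FPKM (y axis, %) for each library (x axis). MAF1 and MAF2 make up most of every bar, and the FLC share is 3.45% to 5.12% in Wild-type and 1.62% to 2.09% across fip37-4 LEC1:FIP37.

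Isoforms were examined next, because the proteins made from MAF1 splice forms differ in activity. Of the 20 transcript rows of the 7 genes, 10 passed the filter, 1 was called higher and 2 lower, against 46.4% of all 23001 transcripts tested, 21.2% higher and 25.1% lower. The 2 lower ones were AT5G10140.1 of FLC, with a log2 fold change of -0.87, and AT5G65050.3, the main form of MAF2, with -0.36 (limma adjusted p = 0.00369 and 0.0379). The higher one was AT2G22540.1 of SVP, with 0.26 (adjusted p = 0.0187). Rows AT5G10140.3 and AT5G65070.2 were listed at 0 in every library. The MAF2 form lost its call when Wild-type replicate 1 or 3, or the other group's replicate 1 or 2, was left out (log2 fold changes -0.28, -0.33, -0.28 and -0.36, adjusted p = 0.116, 0.107, 0.0851 and 0.0801), and the SVP form without Wild-type replicate 3 (0.22, adjusted p = 0.065) and with nuclear scaling (0.24). Over all alternatives adjusted p ran from 0.0155 to 0.116 for the MAF2 form and from 0.00537 to 0.0849 for the SVP form.

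For MAF1, AT1G77080.4 is the form known as FLM-β, whose protein represses flowering with SVP, and AT1G77080.2 is FLM-δ. They are told apart by a mutually exclusive exon, so both are shown. FLM-β carries the MAF1 exon of 58 nt given above, and FLM-δ carries in its place an exon of 46 nt from chr1:28958456-28958501 on the plus strand, printed without capitals because those mark only the exon that all 6 genes share.
MAF1 alternative exon: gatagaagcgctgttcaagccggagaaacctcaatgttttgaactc

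FLM-β was the leading form in all 6 libraries. It stood at 7.17, 6.35 and 6.42 FPKM in Wild-type and at 5.8, 4.94 and 6.27 FPKM in fip37-4 LEC1:FIP37, and no value of the second group reached the first. It did not pass the test, with a log2 fold change of -0.22 ± 0.095 (SE; adjusted p = 0.103 by limma), a 95% interval from -0.44 to 0.0083, and adjusted p from 0.0546 to 0.268 over the alternatives. FLM-δ was at 1.42, 2.65 and 2.24 FPKM in Wild-type and at 2.24, 2.44 and 2.1 FPKM in the other group, which overlapped. The form AT1G77080.3 was at 1.05 ± 0.186 and 1.21 ± 0.341 FPKM.

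As a share of MAF1, FLM-β made up 73.9%, 64.6% and 65.1% in Wild-type and 62.4%, 59.8% and 63.1% in the other group. All 3 shares of the second group were lower, with a mean difference of -6.09 percentage points (exact permutation p = 0.1, adjusted over 11 isoforms 0.88). FLM-δ had 21.4 ± 6.22% and 24.9 ± 4.25%. Tested against the other isoforms of its gene with limma's diffSplice, FLM-β had a relative log2 fold change of -0.34 ± 0.22 (SE; adjusted p = 0.418). None of the 6 isoforms of MAF1 and MAF2 in that test was called, and 0 had an unadjusted p under 0.05, against 6.6% of 6639 transcripts called in all, 3.33% higher and 3.27% lower.

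In the other genes 1 form dominated. AT5G65050.3 held 92.8 ± 7.39% of MAF2 in Wild-type and 88.4 ± 4.09% in the other group. AT5G65060.1 held 90.3 ± 2.38% and 82.1 ± 8.51% of MAF3, the rest being AT5G65060.2, which was at 0.433, 0.264 and 0.467 FPKM in Wild-type and at 0.897, 0.444 and 1.2 FPKM in fip37-4 LEC1:FIP37. The groups of that minor form overlapped, and it was below the filter. AT5G65070.1 held 90.7 ± 5.22% and 91 ± 3.08% of MAF4, and SVP was read almost wholly from AT2G22540.1, with 99.9 ± 0.232% in Wild-type and 100% in each fip37-4 LEC1:FIP37 library.

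**Figure D3:**
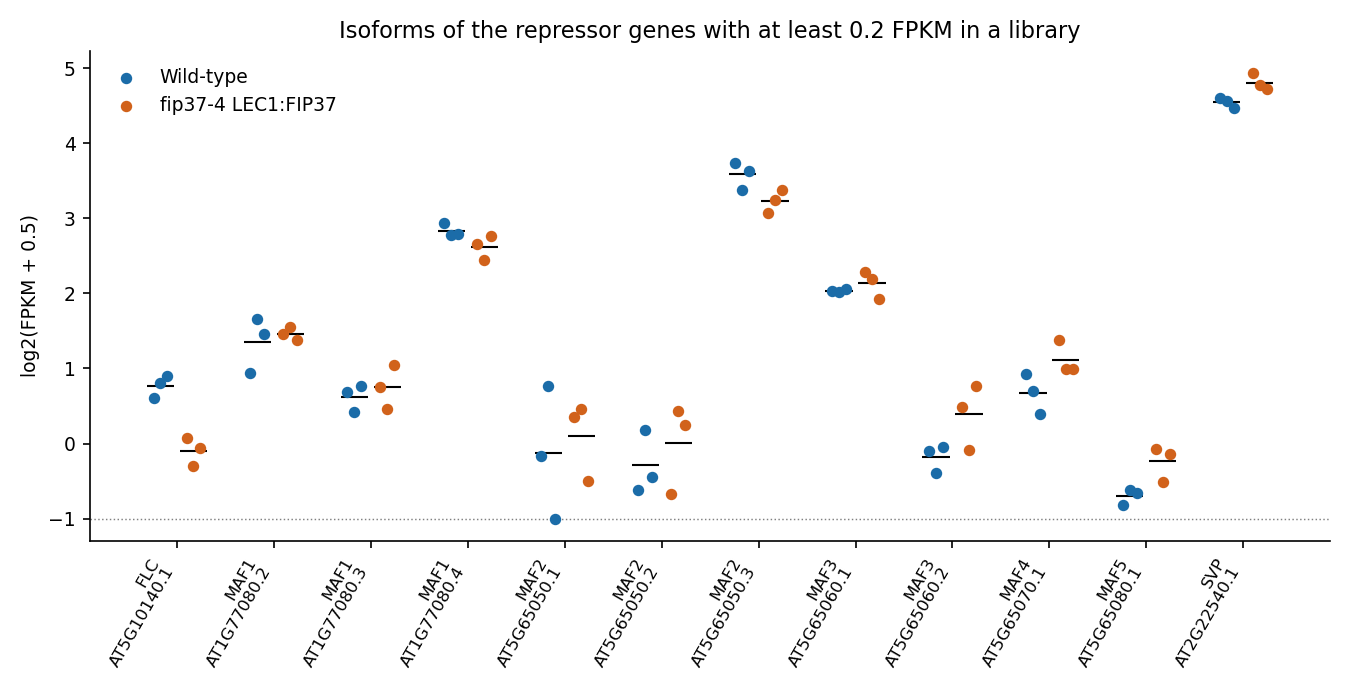
Level of each isoform with at least 0.2 FPKM in a library, as log2(FPKM + 0.5) (y axis), with 1 point per library in Wild-type (blue) and fip37-4 LEC1:FIP37 (orange), the mean as a bar, and the dotted line at 0 FPKM. AT5G10140.1 of FLC, AT2G22540.1 of SVP, AT1G77080.4, AT5G65050.3, AT5G65070.1 and AT5G65080.1 do not overlap between groups, where 57.9% of all transcripts tested did not. The low MAF2 isoforms scatter widely within each group.

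The genes these repressors act on were mostly too scarce to test. Of 11 targets and floral integrators, 4 passed the filter, 1 was higher and 3 lower, with a median log2 fold change of -0.65. Among all loci tested, 58.6% were called, 27.6% higher and 30.9% lower, so calls in 4 genes say little about targets as a group. FT, the florigen gene, had a listed value of 0 in 5 libraries, and of 0.0517 FPKM, about 1 fragment, in fip37-4 LEC1:FIP37 replicate 3. Its homologue TSF was listed at 0.0451, 0 and 0 FPKM in Wild-type and at 0.0487, 0.0406 and 0 FPKM in the others.

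SOC1 (AT2G45660), a floral integrator repressed by FLC and SVP, was at 8.76, 8.16 and 8.2 FPKM in Wild-type and at 6.36, 5.69 and 6.31 FPKM in fip37-4 LEC1:FIP37. The groups did not overlap, and it fell by 0.42 on the log2 scale (SE 0.063, limma adjusted p = 0.000547). FD (AT4G35900), the partner of FT at the apex, rose from 0.484 ± 0.0586 to 0.835 ± 0.0913 FPKM, or by 0.44 on the log2 scale (0.68 with a pseudocount of 0.1). SEP3 (AT1G24260), a floral MADS gene bound by FLC, fell from 30 ± 0.851 to 14.9 ± 3.2 FPKM, and GA20OX2 (AT5G51810), a gibberellin synthesis gene that SVP represses, from 4.08 ± 0.264 to 2.01 ± 0.261 FPKM. AGL24 and AGL42, relatives of SVP and SOC1, were below the filter at 0.527 ± 0.0621 and 0.321 ± 0.0602 FPKM and at 0.29 ± 0.0309 and 0.0872 ± 0.045 FPKM. With no filter, and at these low levels, their log2 fold changes were -0.32 and -0.43 (limma adjusted p = 0.0205 and 0.00323).

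Regulators of the repressors moved in both directions. Over 9 lists with 82 genes, counting the targets, 73 passed the filter, 30 were higher and 20 lower, with a median log2 fold change of 0.11, against 27.6% higher and 30.9% lower among all loci tested, and the counts of each list below are to be read against those shares. With the trend by transcript length taken out, 17 were higher. The lists describe these genes only and were not tested as sets.

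Of 7 genes for histone H3K4 and H3K36 methyltransferases and their partner subunits, 6 were called higher and 0 lower, with a median of 0.35, where 27.6% of all loci were called higher. The calls of ATX2 (AT1G05830) and WDR5A (AT3G49660) were not stable: ATX2 lost its call when Wild-type replicate 3 was left out (0.19, limma adjusted p = 0.0522), with nuclear scaling (0.19, adjusted p = 0.0831) and with the length trend removed (0.02, adjusted p = 0.75). WDR5A lost it when Wild-type replicate 3 or fip37-4 LEC1:FIP37 replicate 1 was left out (0.28 and 0.27, limma adjusted p = 0.0669 and 0.0598) and after quantile normalization (0.20, adjusted p = 0.131). SDG8 (AT1G77300), the histone H3K36 methyltransferase, rose from 6.64 ± 0.144 to 10.5 ± 0.457 FPKM. ATXR7 (AT5G42400), an H3K4 methyltransferase, and ASH2R (AT1G51450), a subunit of such complexes, had log2 fold changes of 0.52 and 0.45. With the length trend removed SDG8 went from 0.63 to 0.33 and ATXR7 to 0.26, both still called. Among 10 genes of histone variant H2A.Z and of H2B ubiquitination, 3 were higher and 6 lower, with a median of -0.31. The H2A.Z genes HTA8 (AT2G38810), HTA11 (AT3G54560) and HTA9 (AT1G52740) fell by 1.02, 0.71 and 0.56 on the log2 scale, and HTA9 was no longer called after quantile normalization (-0.28, limma adjusted p = 0.0719) and was at -0.34 with the length trend removed. Such histone genes have close copies, so single values are uncertain.

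In the autonomous pathway, which keeps FLC low, 3 of 8 were higher and 1 lower. FVE (AT2G19520), a component of histone deacetylase complexes, fell from 16.9 ± 0.525 to 11.6 ± 0.634 FPKM. The RNA-binding genes FPA (AT2G43410) and FCA (AT4G16280) rose by 0.29 and 0.26, and both lost their calls once a trend with transcript length was removed (0.11 and 0.02, limma adjusted p = 0.117 and 0.805). The remaining higher gene, LD (AT4G02560), rose by 0.23 and also lost its call in that setting (0.10, limma adjusted p = 0.161). Of 6 FRIGIDA complex genes, 2 were higher, FES1 (AT2G33835) and FRL2 (AT1G31814), with log2 fold changes of 0.42 and 0.35. Of 6 genes of the PAF1 complex, which accompanies RNA polymerase II and is needed for FLC expression, VIP5 (AT1G61040) and ELF8 (AT2G06210) rose by 0.23 and 0.18, and VIP3 (AT4G29830) fell from 13.1 ± 0.0434 to 8.96 ± 1.6 FPKM. The ELF8 call ended when Wild-type replicate 3 was left out (0.17, limma adjusted p = 0.0516), with nuclear scaling (0.16, adjusted p = 0.0915) and with the length trend removed (0.02, adjusted p = 0.736).

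Of 13 Polycomb and vernalization genes, 12 were tested, 4 were higher and 1 lower. VRN5 (AT3G24440), a PHD-finger partner of Polycomb, rose by 0.37 and VAL2 (AT4G32010), a B3-domain silencer, by 0.26, and VRN1 (AT3G18990), a DNA-binding protein of vernalization, fell by 0.30. VRN5 was no longer called without Wild-type replicate 1 or 2 (0.34 and 0.35, limma adjusted p = 0.0653 and 0.0654) and was at 0.24 without fip37-4 LEC1:FIP37 replicate 2. VAL2 was no longer called with the length trend removed (0.09, limma adjusted p = 0.225). Of 10 genes that process FLC antisense or FLM transcripts, 4 were higher and 4 lower. The spliceosome gene PRP8A (AT1G80070, SUS2 in RefSeq) rose from 29.6 ± 0.186 to 41.9 ± 0.636 FPKM, and the glycine-rich RNA-binding genes GRP7 (AT2G21660) and GRP8 (AT4G39260) fell by 0.60 and 0.56. With the length trend removed PRP8A went from 0.50 to 0.14, and after quantile normalization GRP7 was at -0.36, both still called.

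Of 11 other regulators of FT, 10 were tested, 5 were higher and 4 lower, with a median log2 fold change of 0.26. Among the lower ones, GI (AT1G22770) had a log2 fold change of -0.13 (limma adjusted p = 0.0376) and was not stable. It kept direction and call in 7 of 15 alternatives, with adjusted p from 0.000364 to 0.525. The AP2-type repressor gene SNZ (AT2G39250) rose 3.28-fold, from 4.63 ± 0.424 to 15.2 ± 0.716 FPKM, and its relative TOE1 (AT2G28550, RAP2.7 in RefSeq) from 10.9 ± 1 to 18 ± 1.29 FPKM. FKF1 (AT1G68050), a light-sensing activator of CO and FT, fell from 13.8 ± 0.939 to 7.6 ± 0.707 FPKM. CO (AT5G15840), which activates FT in long days, was below the filter at 0.398 ± 0.0569 and 0.299 ± 0.0482 FPKM.

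**Figure D4:**
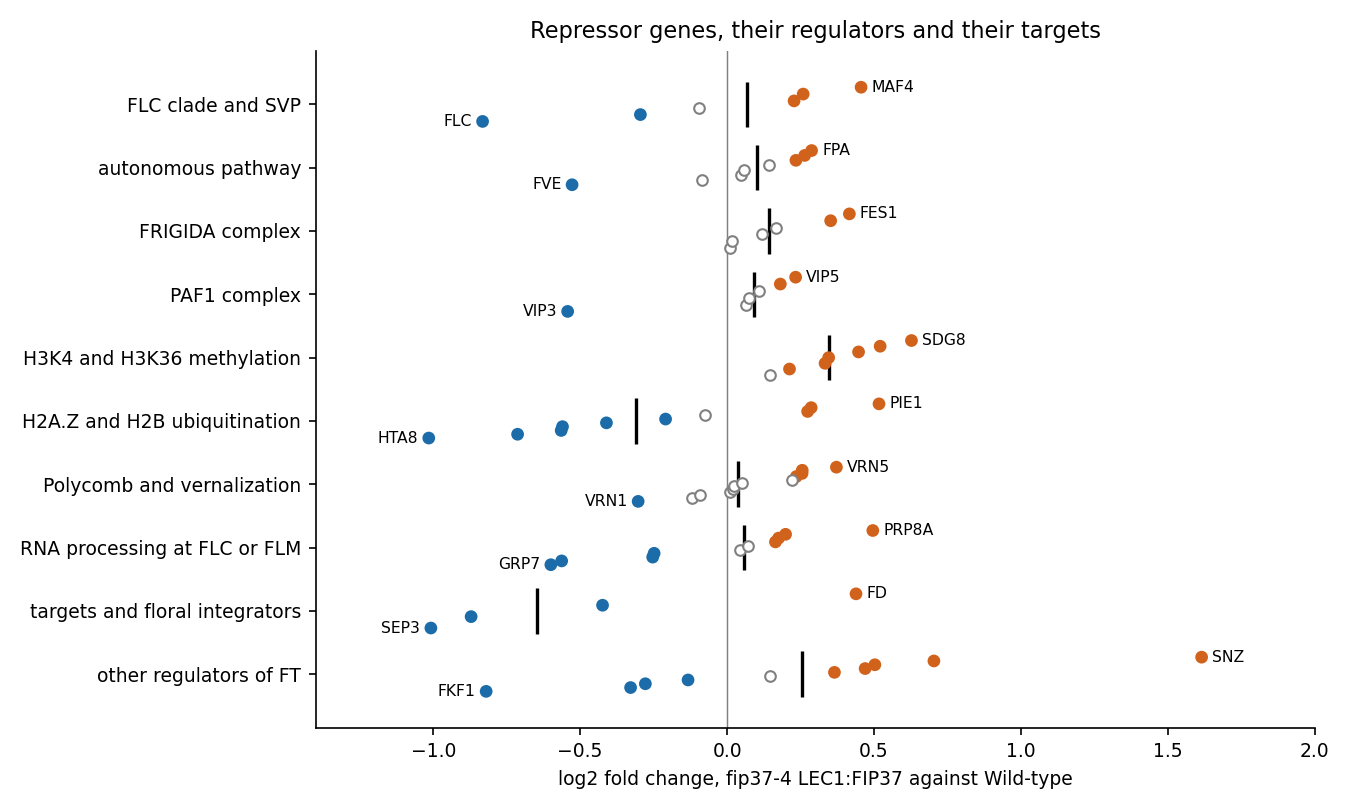
Log2 fold change of fip37-4 LEC1:FIP37 against Wild-type (x axis) for every tested gene of the repressors and of the 9 lists (y axis); filled points were called higher (orange) or lower (blue), open points were not called, and the black bar is the median of the list. SNZ is the farthest right at 1.62 and HTA8 the farthest left at -1.02, with FLC at -0.83.

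Genes beside the repressors were read for comparison, taking 2 annotated loci on each side in RefSeq order. AT5G10130, beside FLC, was at 2.45 ± 0.224 and 0.824 ± 0.0361 FPKM, a log2 fold change of -1.16 (limma adjusted p = 2.01e-05). On the other side of FLC, AT5G10150 was at 9.58 ± 0.308 and 9.91 ± 0.457 FPKM (log2 fold change 0.05, adjusted p = 0.494), and AT5G10160 beyond it fell by 0.87. Beside SVP, AT2G22530 and NET2D (AT2G22560) rose by 0.34 and 0.59 and NIC1 (AT2G22570) fell by 0.40, the first and the last of these not called with the length trend removed (0.20 and -0.20, adjusted p = 0.0584 and 0.0514). AT2G22520, next to them, was listed between 0 and 0.166 FPKM.

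Around MAF1, AT1G77030 rose by 0.37, AT1G77060 was at 24.1 ± 0.994 and 23.5 ± 0.471 FPKM, AT1G77090 fell by 0.76 and AT1G77093 was listed at 0 in every library. Around the MAF2 to MAF5 cluster, AT5G65040 was at 1.87 ± 0.0418 and 1.71 ± 0.246 FPKM, and BST1 (AT5G65090) and AT5G65100 were below the filter at 0.357 ± 0.0319 and 0.4 ± 0.0382 and at 0.0394 ± 0.0236 and 0.158 ± 0.0224 FPKM. The annotated non-coding locus AT5G09295, between AT5G65040 and MAF2, was not analysed here.

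The tested loci most like FLC across the 6 libraries, by the root mean square difference of log2 values centred on each gene's mean, were AT3G12170, DTX1 (AT2G04040) and SOL1 (AT3G22760), at 0.0581, 0.0746 and 0.0749. For SVP they were TRN1 (AT5G55540), WRKY22 (AT4G01250) and AT5G58900, at 0.0187, 0.0209 and 0.022. With 6 libraries and most loci differing between the groups, such matches only describe levels.

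Levels of most tested markers moved with the groups as well. The counts of markers are to be read against all loci tested, of which 27.6% were called higher and 30.9% lower. The 3 shoot meristem markers were all higher, with a summed level of 16.8 to 17.6 FPKM in Wild-type and 25.3 to 28 FPKM in fip37-4 LEC1:FIP37. The 3 leaf photosynthesis markers were also all higher, at 20502 to 21416 and 29255 to 32705 FPKM, as were all 3 tested of 4 seed maturation markers, at 2.62 to 3.37 and 11.8 to 12.3 FPKM. Of 5 root tip markers 2 were tested and higher, SCR from 4.87 to 6 FPKM and SHR from 3.43 to 8.17 FPKM on average. They carried most of the sum for all 5, at 8.62 to 9.16 and 14.1 to 15.6 FPKM. PLT1, PLT2 and WOX5 stayed below the filter, with overlapping groups. Their means were lower in fip37-4 LEC1:FIP37, at 0.0665, 0.0841 and 0.335 FPKM, against 0.129, 0.14 and 0.375 FPKM in Wild-type. Of 3 markers of phloem companion cells, where FT is made, 1 was higher, and their sums overlapped at 82.4 to 86.9 and 80.7 to 92.4 FPKM. None of these 18 markers was at 0 in every library, though EM1 was listed at 0 in all Wild-type libraries. The part of these shifts in the levels of FLC, SVP and the MAF genes was not tested.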

How the data were processed

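The authors deposited FPKM per transcript. The submitters' processing notes name TopHat2 2.0.9, Cufflinks 2.1.1 and build TAIR10. No header states the unit, which was inferred from these tools and the values, and count models were not applied. Isoforms were summed per locus, and log2(FPKM + 0.5) was tested with limma 3.58.1 in R 4.3.3 (mean-variance trend, robust empirical Bayes, no covariate) over the 19383 loci, or 23001 transcripts, with at least 0.5 FPKM in at least 3 libraries. Calls used a Benjamini-Hochberg adjusted p under 0.05. Isoform use was tested with limma's diffSplice. Shares, sums and ratios were compared with exact two-sided permutation tests (Python 3.11.15, SciPy 1.17.1). Both fits were tested on simulated data. The value of a single fragment was estimated from the lowest values of single-isoform loci and the RefSeq transcript length less 240 nt, which gives approximate fragments only, since 38.2% to 44.1% of values under about 5 fragments lay within 0.05 of a whole number. Positions and exons are those of RefSeq, assembly TAIR10.1, and are not coordinates of the authors' files, which hold none. Of all loci, 26701 matched that reference.

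The members and lists were chosen with earlier results of these data known. Named genes are the 7 members and their isoforms, FIP37, FT, SOC1, TSF, CO, up to 3 called members of each list with the largest change, the neighbouring loci and the 3 nearest patterns of FLC and SVP. AGL24, AGL42, ATX2, WDR5A, GI, LD and the single marker genes are named outside that rule, after their values were seen. Alternatives were other pseudocounts and filters, leaving out each library, a replicate block, plain empirical Bayes, quantile normalization, scaling to nuclear loci and removal of a trend with transcript length.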

Additional observations from a re-analysis of the deposited data

How the results depend on the processing

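FLC and SVP kept direction and call in all 15 alternatives. After quantile normalization MAF2, MAF3 and MAF4 had log2 fold changes of -0.21, 0.19 and 0.32 without a call, leaving 2 of the members called, 1 higher and 1 lower, and the MAF2 to MAF5 sum turned to 0.081. With the length trend removed MAF2 was at -0.12 without a call, 1 member was lower, MAF1 turned to 0.10 and 17 regulators or targets were higher. With nuclear scaling MAF3 was at 0.21 without a call. Leaving out 1 library gave ranges of -0.34 to -0.20 for MAF2, 0.16 to 0.26 for MAF3 and 0.34 to 0.58 for MAF4, with 3 to 5 members called, 1 to 3 of them higher and 1 to 2 lower, and 1 to 3 isoforms called. With no filter 2 isoforms, both of FLC, were called for use, AT5G10140.1 and AT5G10140.2 (relative log2 fold changes -0.87 and 0.57). AT5G10140.2 was at 0.107 FPKM in replicate 2 of the mutant group and was listed at 0 in every other library. Being at 0 in Wild-type, it could not fall along with AT5G10140.1. These calls therefore do not show a change in FLC isoform use. In isoforms without a call, leaving out 1 library turned signs: values ran from -0.091 to 0.27 for AT1G77080.2, -0.016 to 0.27 for AT1G77080.3 and -0.20 to 0.69 for AT5G65050.1, and relative values from -0.089 to 0.37 for AT1G77080.2 and -0.14 to 0.67 for AT5G65050.1. Beside the members, GI turned to 0.034 and AT1G77060 to 0.14 (called) after quantile normalization, and AT1G77060 and AT5G65040 to 0.068 and 0.12 with the length trend removed. The cause was not tested. Same-numbered libraries did not deviate together (correlations -0.03, -0.05 and -0.06). These values give no sign of pairing by number, though they cannot exclude it. With replicate block FLC was at -0.83 (limma adjusted p = 0.00265), no member changed its call, and of the isoforms AT5G65050.3 lost its call, as in 7 of its other alternatives (-0.36, adjusted p = 0.0585) and AT5G65070.1 gained one (0.45, adjusted p = 0.0409). FLC and MAF4 are limited by few fragments and MAF5 by its low level.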

Other observations

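CO, the long-day activator of FT, was below the filter as a locus, and the means of its 2 isoforms differed in direction. AT5G15840.1, which RefSeq shows as 2 exons, was at 0.181, 0.161 and 0.269 FPKM in the Wild-type libraries, about 17.6, 17 and 25 fragments, and was listed at 0 in all 3 fip37-4 LEC1:FIP37 libraries. AT5G15840.2, which RefSeq shows as 1 exon, was at 0.154, 0.254 and 0.175 FPKM in Wild-type. In fip37-4 LEC1:FIP37 it was at 0.352, 0.257 and 0.289 FPKM, without overlap. With no filter, the use of these isoforms relative to each other differed between the groups (limma's diffSplice, relative log2 fold change 0.69 ± 0.14, SE, for AT5G15840.2, adjusted p = 0.014), and the locus itself had a log2 fold change of -0.17 ± 0.085 (limma adjusted p = 0.144). These values were chosen after they were seen, a listed 0 can be a failed estimate, and reads of overlapping isoforms are divided by the authors' software.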
